A study of Mus musculus with 24 samples.

Results

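The medial prefrontal cortex (mPFC) and the striatum of adult mice were compared in 10 of the 24 RNA sequencing samples of the study, 5 punches of each region from the same 5 mice at postnatal day 56 (P56). They were chosen by age and region alone, as the sample labels give them, and mPFC 1 and striatum 1 stand for the samples of mouse 1. All were untreated wild-type C57BL/6 mice of both sexes, and the other 14 samples of the study came from P7 and P14 mice. The libraries were stranded and depleted of ribosomal RNA. Each punch held every cell type of the tissue, and the striatal punches mixed dorsal and ventral parts. The authors' counts gave 81002803 to 111053604 reads on genes per P56 library, with 17680 to 18379 genes at 10 reads or more, and a further 45025659 to 61492543 reads on contigs assembled from reads of the strand opposite to a gene. Levels are CPM (reads of a gene scaled to a common library size, with TMM factors), and every log2 fold change is mPFC minus striatum, so that a negative value is a gene higher in striatum.

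Nearly all striatal neurons are medium spiny neurons, GABA-releasing projection cells that fall into a direct pathway, with the dopamine D1 receptor, dynorphin and substance P, and an indirect pathway, with the D2 receptor, the adenosine A2a receptor and enkephalin. A small population of cholinergic interneurons runs between them. The mPFC has no medium spiny neurons. Its principal cells are glutamatergic pyramidal neurons arranged in layers, accompanied by GABAergic interneurons, and it sends axons to the striatum. Astrocytes, oligodendrocytes, microglia and vessels are found in both.

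The labels were checked against genes that define these cells, and 4 libraries held genes of the other region. The 13 genes of cortical excitatory neurons had a mean log2(CPM + 0.5) of 2.95 in striatum 1 and 3.11 in striatum 5, but 5.01, 5.87 and 5.14 in striatum 2, 3 and 4, and all mPFC libraries lay between 6.63 and 6.82. The median gene of that list reached 2.73% of its mean mPFC level in striatum 1 and 3.63% in striatum 5, against 23.4%, 48.2% and 24.9% in striatum 2, 3 and 4. Striatum 1 and 5 were thus low and the other 3 intermediate. In the reverse direction, mPFC 3 held the 7 indirect-pathway genes at 4.18, and the other mPFC libraries at 2.58 to 2.74. The median gene of that list was at 6.58% of its striatal mean in mPFC 3 and at 1.90% to 2.20% in the others. Striatum 2 was also the highest striatal library for genes of the septum and pallidum (4.504, others 2.03 to 2.76), of ependyma (1.96, others 0.02 to 0.61) and of the ventral striatum (2.77, others 1.24 to 1.75). In the comparison of genes at P56, fold changes that moved by over 1.5 times without striatum 2, 3 and 4 are therefore given also without them, from a fit where 5 mPFC libraries face striatum 1 and 5 with no pairing by mouse. Those of genes higher in striatum that moved as much without mouse 3, the mouse of mPFC 3, are given also without that mouse.

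**Figure D1:**
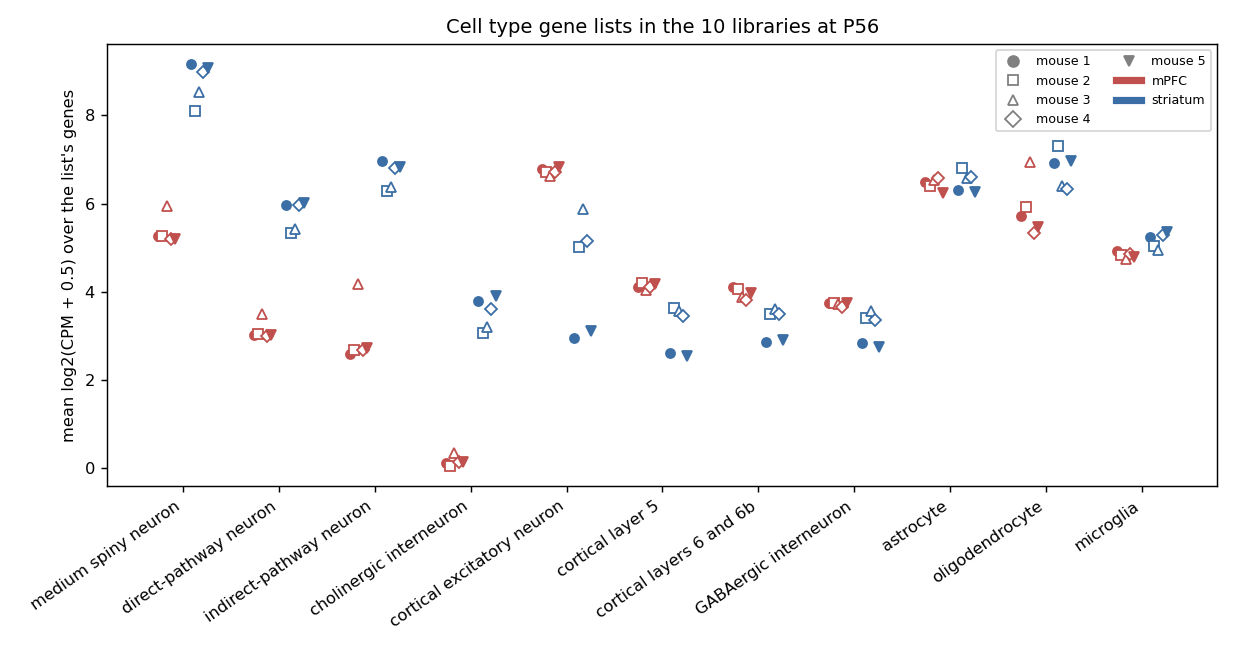
Mean log2(CPM + 0.5) over the genes of 11 cell type lists (vertical axis) in each P56 library, with mPFC in red, striatum in blue and 1 marker shape per mouse, filled for mice 1 and 5. In the cortical excitatory neuron list, striatum 1 and 5 lie at 2.95 and 3.11, below striatum 2, 3 and 4. In the indirect-pathway list mPFC 3 lies at 4.18, above the other mPFC libraries.

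Over all genes, the regions differed widely, with calls in both directions. Of 18809 genes tested with a term for the mouse, 7162 (38.1%) passed an adjusted p of 0.05 (edgeR quasi-likelihood test, Benjamini-Hochberg), 3580 higher in mPFC (19%) and 3582 higher in striatum (19%), and the median log2 fold change was −0.02. TMM scaling sets the centre of the fold changes near 0, so the even split is not a result of its own. Over the alternative fits, calls higher in mPFC made up 49.1% (without the pairing by mouse) to 55.1% (without mouse 4). A difference of at least 2-fold was added in 2348 genes (12.5%). Without striatum 2, 3 and 4, 7561 of 18459 genes (41%) passed, and without mouse 5 the count was 4390. The level in all 5 libraries of one region lay above all 5 of the other in 5111 genes (27.2%). These shares are the background for the gene lists below. The lists were chosen with earlier results of these data known, so their counts are descriptions and not a test against that background. In a punch of tissue, fewer cells of a type and less RNA per cell cannot be told apart.

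The genes of medium spiny neurons were all higher in striatum. All 20 genes of the shared list passed in that direction, with a median of −3.55 (range −6.52 to −1.61) and no overlap between the groups in any of them. *Ppp1r1b*, which encodes DARPP-32, the phosphatase inhibitor that relays dopamine signals, stood at 41.6, 46.5, 92.2, 32.0 and 29.2 CPM in mPFC 1 to 5 and at 1186, 498, 807, 1081 and 1092 CPM in striatum 1 to 5. Striatum 2 was the lowest of the striatal libraries and mPFC 3 the highest of the cortical ones, and the groups did not overlap (log2 fold change −4.35, SE 0.39, adjusted p = 0.000862). *Rgs9*, which speeds the end of G protein signals, was at 16.3, 14.99, 41.8, 15.7 and 19.2 CPM in mPFC 1 to 5 and at 689, 283, 422, 598 and 801 CPM in striatum 1 to 5 (log2 fold change −4.74, SE 0.37, adjusted p = 0.00064). It was again highest in mPFC 3 among the cortical libraries. *Syndig1l*, a synaptic membrane protein, had the largest difference of the list (log2 fold change −6.52, SE 0.66, adjusted p = 0.00118, and −7.22 without mouse 3), with 0.640 to 6.76 CPM in mPFC and 57.4 to 149 CPM in striatum.

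Direct-pathway genes followed the same direction. All 9 were higher in striatum (median −2.60), 8 of them without overlap. *Drd1* (chr13:54051186-54055658, GRCm38), the dopamine D1 receptor, was at 30.4, 30.1, 38.8, 26.9 and 32.4 CPM in mPFC 1 to 5 and at 674, 333, 352, 653 and 676 CPM in striatum 1 to 5. The striatal libraries formed a high set, 1, 4 and 5, and a lower set, 2 and 3, and all lay far above mPFC (log2 fold change −4.02, SE 0.26, adjusted p = 0.000502). *Tac1* (chr6:7554879-7565834), the precursor of substance P, was at 19.9, 17.4, 22.3, 16.8 and 19.4 CPM in mPFC 1 to 5 and at 305, 182, 187, 355 and 348 CPM in striatum 1 to 5 (log2 fold change −3.79, SE 0.22, adjusted p = 0.000502). *Pdyn*, the dynorphin precursor, was at 19.5, 19.3, 21.5, 19.2 and 22.5 CPM in mPFC 1 to 5 and at 90.9, 62.0, 43.2, 89.2 and 109 CPM in striatum 1 to 5 (log2 fold change −1.88, SE 0.20, adjusted p = 0.00121). Its difference was smaller than that of *Drd1* or *Tac1*, with 19.2 to 22.5 CPM in mPFC. *Slc35d3*, a sugar nucleotide transporter family member, differed by −5.80, adjusted p = 0.00121, and by −6.54 without mouse 3, with 0.269 to 2.35 CPM in mPFC and 18.04 to 38.5 CPM in striatum. *Isl1*, a LIM homeodomain factor of direct-pathway and cholinergic neurons, was at 11.5 to 21.7 CPM in striatum, and mPFC held 1 to 12 reads per library except mPFC 3 with 69.

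Of 7 indirect-pathway genes tested, 6 were higher in striatum and 1 in mPFC (median −5.25). *Drd2* (chr9:49340662-49407214), the dopamine D2 receptor, was at 0.347, 0.390, 5.59, 0.501 and 0.504 CPM in mPFC 1 to 5 and at 131, 60.3, 79.6, 124 and 129.7 CPM in striatum 1 to 5 (log2 fold change −7.05, SE 0.80, adjusted p = 0.00139, and −7.94 without mouse 3). *Adora2a* (chr10:75316943-75334788), the adenosine A2a receptor, was at 1.10, 1.27, 14.2, 1.58 and 1.07 CPM in mPFC 1 to 5 and at 339.8, 137, 208, 335 and 348 CPM in striatum 1 to 5 (log2 fold change −7.05, SE 0.80, adjusted p = 0.00139, and −7.76 without mouse 3). In both genes mPFC 3 lay well above the other mPFC libraries and far below every striatal library. *Penk* (chr4:4133531-4138819), the enkephalin precursor, stood at 22.9, 25.2, 75.4, 21.8 and 22.1 CPM in mPFC 1 to 5 and at 1441, 679.8, 734, 1408 and 1474 CPM in striatum 1 to 5 (log2 fold change −5.25, SE 0.50, adjusted p = 0.00101). *Gpr6*, an orphan receptor of these neurons, differed by −6.48, adjusted p = 0.00132, and by −7.22 without mouse 3. The exception was *Grik3*, a kainate receptor subunit, at 98.7 to 129 CPM in mPFC and 60.3 to 75.5 CPM in striatum (log2 fold change 0.76, SE 0.10, adjusted p = 0.0019).

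**Figure D2:**
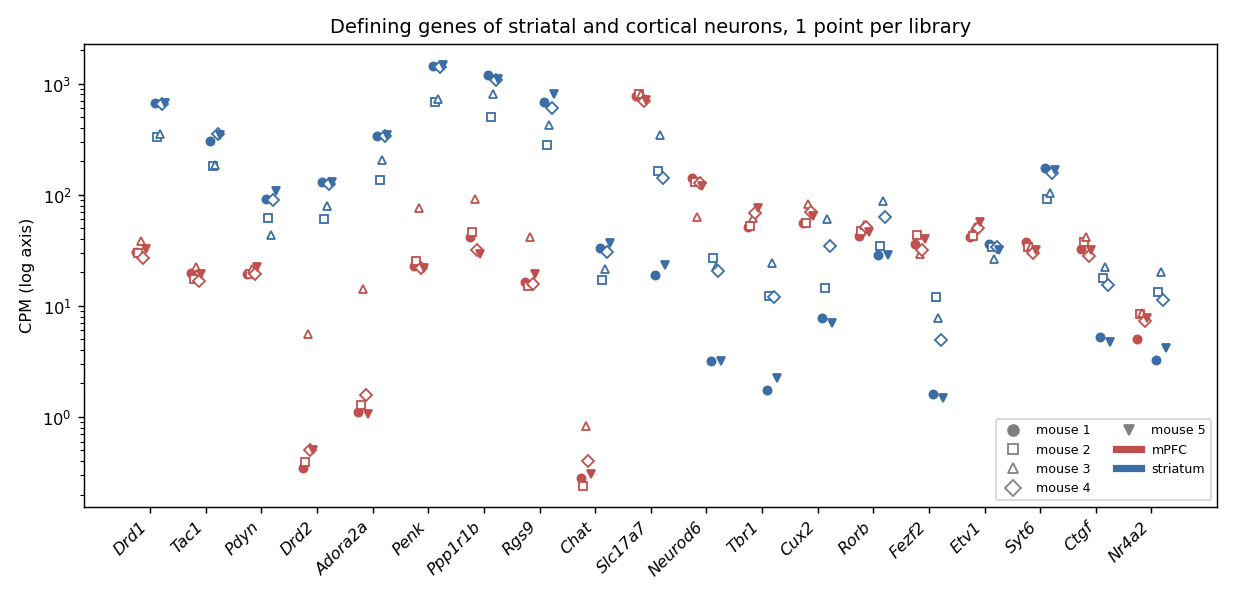
Levels in CPM (vertical log axis) of 19 genes that define striatal or cortical neurons, 1 point per P56 library, with mPFC in red, striatum in blue and 1 marker shape per mouse, filled for mice 1 and 5. *Drd1* lies at 26.9 to 38.8 CPM in mPFC and at 333 to 676 CPM in striatum, and *Slc17a7* spreads from 19.0 to 345 CPM within the striatal libraries.

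Genes of cholinergic interneurons, a small population, were all higher in striatum. All 8 passed without overlap (median −4.89, range −7.99 to −1.90). *Chat* (chr14:32408203-32465909), the enzyme that makes acetylcholine, was at 0.285, 0.241, 0.825, 0.404 and 0.305 CPM in mPFC 1 to 5 and at 33.0, 17.0, 21.5, 30.8 and 37.0 CPM in striatum 1 to 5 (log2 fold change −6.12, SE 0.36, adjusted p = 0.000502). The transporter that loads acetylcholine into vesicles, *Slc18a3*, and the choline transporter, *Slc5a7*, differed by −4.99 and −4.79 (adjusted p = 0.000798 and 0.000258). *Lhx8*, a homeodomain factor of these cells, was at 4.27 to 7.63 CPM in striatum and had 1 to 3 reads per mPFC library, so its fitted value of −7.82 depends on how the fit treats so few reads. Of the 7 genes of the ventral striatum, 4 passed, all higher in striatum. *Nts*, the neurotensin precursor, was at 0.365, 0.343, 1.85, 0.391 and 0.820 CPM in mPFC 1 to 5 and at 4.57, 17.3, 3.52, 8.17 and 7.29 CPM in striatum 1 to 5 (log2 fold change −3.54, SE 0.66, adjusted p = 0.00663, and −4.17 without mouse 3). Striatum 2, which led the list as a whole, was the highest.

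Signalling by dopamine and cyclic nucleotides was split by member rather than uniform. Of 32 genes tested, 20 were higher in striatum and 7 in mPFC (median −0.86), those of striatum including *Drd1*, *Drd2*, *Rgs9* and *Ppp1r1b*. The 3 largest in the direction of mPFC were a phosphodiesterase and 2 adenylyl cyclases, each controlled by calcium and calmodulin. *Pde1a* was at 429, 379.8, 308, 368 and 408 CPM in mPFC 1 to 5 and at 31.7, 119.8, 115, 69.8 and 38.4 CPM in striatum 1 to 5 (log2 fold change 2.52, SE 0.38, adjusted p = 0.00323). *Adcy1* was at 1305, 1363, 1551, 1296 and 1317 CPM in mPFC 1 to 5 and at 325, 498, 829, 534 and 295 CPM in striatum 1 to 5 (log2 fold change 1.56, SE 0.19, adjusted p = 0.00188), and *Adcy8* followed at 1.51 (adjusted p = 0.0176), with striatum 3 inside the mPFC range. Without striatum 2, 3 and 4 the 3 values were 3.43, 2.14 and 2.77. *Th*, the enzyme that starts dopamine synthesis, was low in both regions at 3.57, 3.88, 3.12, 2.64 and 2.99 CPM in mPFC 1 to 5 and at 8.27, 4.14, 5.20, 10.7 and 9.43 CPM in striatum 1 to 5 (log2 fold change −1.15, SE 0.28, adjusted p = 0.0165), and its call was lost without mouse 1, 4 or 5.

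Genes of cortical excitatory neurons were higher in mPFC, and their measured size depended on which striatal libraries were used. Of 13 genes, 10 were higher in mPFC and 1 in striatum (median 2.97), and without striatum 2, 3 and 4 the counts were 12 and 1 (median 5.00). *Slc17a7* (chr7:45163921-45176138), the vesicular glutamate transporter of these neurons, stood at 780.0, 802, 811, 706 and 721 CPM in mPFC 1 to 5 and at 19.0, 165, 345, 141 and 23.2 CPM in striatum 1 to 5. Striatum 1 and 5 were the lowest, the other 3 lay between them and mPFC, and the groups did not overlap (log2 fold change 3.18, SE 0.70, adjusted p = 0.0121), and the log2 fold change was 5.17 without them. *Neurod6* (chr6:55677818-55681263), a basic helix-loop-helix factor of pyramidal neurons, was at 142, 129, 62.5, 126 and 121 CPM in mPFC 1 to 5 and at 3.17, 27.2, 22.6, 20.7 and 3.19 CPM in striatum 1 to 5 (log2 fold change 3.32, SE 0.70, adjusted p = 0.00987, and 5.19 without striatum 2, 3 and 4). The mPFC 3 library was low for this gene. *Tbr1* (chr2:61802930-61814114), a T-box factor, stood at 51.3, 52.0, 61.8, 68.1 and 76.0 CPM in mPFC 1 to 5 and at 1.73, 12.2, 24.1, 12.05 and 2.24 CPM in striatum 1 to 5 (log2 fold change 3.09, SE 0.63, adjusted p = 0.00895, and 4.96 without the 3 libraries). *Nrn1*, the neurite growth factor neuritin, differed by 3.29 and 5.61 in the respective fits. *Lmo3*, a LIM-only regulator placed on this list, was the exception, at 85.6 to 109 CPM in mPFC and 170.2 to 251 CPM in striatum (log2 fold change −1.08, SE 0.09, adjusted p = 0.000798).

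Layer genes were called in both directions. Of 11 layer 5 genes, 8 were higher in mPFC and 1 in striatum (median 0.79). *Fezf2* (chr14:12341892-12345865), which specifies subcortical projection neurons, was at 36.4, 43.7, 29.4, 32.1 and 40.3 CPM in mPFC 1 to 5 and at 1.60, 12.1, 7.79, 4.96 and 1.48 CPM in striatum 1 to 5 (log2 fold change 3.08, SE 0.52, adjusted p = 0.0045, and 4.56 without striatum 2, 3 and 4). *Myl4*, a myosin light chain, and *Npr3*, the clearance receptor for natriuretic peptides, differed by 3.24 and 3.07, and by 5.01 and 6.17 without those libraries. *Etv1*, an ETS factor, differed little, at 42.0 to 57.2 CPM in mPFC and 26.2 to 36.4 CPM in striatum (log2 fold change 0.58, SE 0.12, adjusted p = 0.00946). *Pld5*, of the phospholipase D family, was the member higher in striatum (log2 fold change −3.11, SE 0.19, adjusted p = 0.000502).

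Of 11 genes of layers 6 and 6b, 5 were higher in mPFC and 2 in striatum. *Rprm* led at 2.56, adjusted p = 0.00313, followed by *Cplx3*, a complexin of transmitter release (1.98), and *Ntsr1*, a neurotensin receptor (1.84). Without striatum 2, 3 and 4 the 3 values were 3.51, 3.02 and 3.00. *Ctgf*, a matrix protein of layer 6b, was at 32.2, 37.3, 41.7, 28.2 and 31.9 CPM in mPFC 1 to 5 and at 5.28, 17.7, 22.5, 15.3 and 4.69 CPM in striatum 1 to 5 (log2 fold change 1.62, SE 0.34, adjusted p = 0.00981, and 2.78 without striatum 2, 3 and 4). The corepressor *Tle4* (−0.77) and the vesicle protein *Syt6* were higher in striatum. *Syt6* (chr3:103575231-103645569) stood at 37.5, 34.1, 34.3, 30.1 and 32.1 CPM in mPFC 1 to 5 and at 175, 90.9, 104, 155 and 167 CPM in striatum 1 to 5, with no overlap (log2 fold change −1.997, SE 0.17, adjusted p = 0.000756).

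For layers 2 to 4 the 10 genes had a median of −0.06, with 3 higher in mPFC and 4 in striatum, and the members parted. *Cux2*, a homeobox gene of upper layers, was at 55.9, 55.4, 82.0, 70.6 and 63.8 CPM in mPFC 1 to 5 and at 7.82, 14.3, 61.0, 34.6 and 7.03 CPM in striatum 1 to 5, so striatum 3 overlapped the mPFC range (log2 fold change 1.88, SE 0.42, adjusted p = 0.0128, and 3.14 without striatum 2, 3 and 4). *Rasgrf2*, a Ras exchange factor, and *Stard8*, a GTPase activator, were higher in mPFC at 1.60 and 1.24, and at 2.95 and 1.95 without those libraries. The paralogue of *Cux2*, *Cux1*, was higher in striatum (−0.76, adjusted p = 0.00127), as were *Rspo1* (−0.81) and *Wfs1* (−0.25). *Rorb*, a nuclear receptor of layer 4, did not pass at 42.4, 46.9, 54.0, 51.0 and 46.6 CPM in mPFC 1 to 5 and at 28.7, 34.5, 87.7, 62.8 and 28.5 CPM in striatum 1 to 5 (log2 fold change 0.14, SE 0.21, adjusted p = 0.629), whereas it did without striatum 2, 3 and 4 (0.75, adjusted p = 0.000402).

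The claustrum and insula, which border the striatum, had 1 gene higher in mPFC and 2 higher in striatum of 5 tested. *Ntng2*, a netrin-G, was the first (1.15, and 1.78 without striatum 2, 3 and 4), and *Gnb4*, a G protein subunit, and *Lxn*, latexin, were the others (−0.61 and −0.36). *Nr4a2*, an orphan nuclear receptor of the claustrum and of layer 6b, was at 5.01, 8.49, 8.70, 7.33 and 7.74 CPM in mPFC 1 to 5 and at 3.27, 13.4, 20.2, 11.3 and 4.16 CPM in striatum 1 to 5. Striatum 2, 3 and 4 lay above every mPFC library and striatum 1 and 5 below every one (log2 fold change −0.21, SE 0.32, adjusted p = 0.636), and without the 3 libraries the direction turned to mPFC (1.00, adjusted p = 0.00646).

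Among 18 genes of GABAergic interneurons, 9 were higher in mPFC and 4 in striatum (median 0.64). *Vip*, the peptide of one cortical class, was at 48.2, 44.6, 42.5, 41.7 and 52.7 CPM in mPFC 1 to 5 and at 0.709, 9.57, 27.3, 13.8 and 1.08 CPM in striatum 1 to 5 (log2 fold change 2.98, SE 0.92, adjusted p = 0.0392, and 5.69 without striatum 2, 3 and 4). Striatum 1 and 5 were again far below striatum 2, 3 and 4, all 5 lay below mPFC, and the call was lost without mouse 1, 2, 4 or 5. *Kcnc2*, a fast potassium channel, differed by 2.55 and 4.00, and *Tac2*, the neurokinin B precursor, by 2.39 and 4.30 in the respective fits. On the striatal side, *Chodl*, a marker of long-range somatostatin cells, was at 0.697 to 0.984 CPM in mPFC and 1.61 to 3.46 CPM in striatum (−1.59, adjusted p = 0.00265). The neuronal nitric oxide synthase *Nos1* differed by −0.64. *Reln*, the matrix protein reelin, was at 112, 116, 137, 123 and 143 CPM in mPFC 1 to 5 and at 501, 217, 415, 439 and 444 CPM in striatum 1 to 5 (log2 fold change −1.63, SE 0.17, adjusted p = 0.00121), lowest in striatum 2.

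Transcription factors were split by the list they were on. Of 25 factors of the ventral telencephalon, from which striatal neurons arise, 17 passed, all higher in striatum (median −1.95). *Six3* was at 3.48 to 7.91 CPM in striatum and had 0 to 3 reads per mPFC library except mPFC 3 with 46. Of 27 factors of the dorsal telencephalon, 15 were higher in mPFC and 4 in striatum (median 0.79, and 2.01 without striatum 2, 3 and 4). The largest of the latter was the POU factor *Pou3f1*, at 6.93 to 15.9 CPM in mPFC and 16.4 to 36.0 CPM in striatum (−1.38, adjusted p = 0.00402), followed by *Lmo3* and *Cux1*.

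Retinoic acid acts through nuclear receptors that are abundant in striatum. Of 18 genes of the pathway, 10 were higher in striatum and 4 in mPFC. The receptors *Rarb* and *Rxrg* stood at 120.0 to 241 and 105 to 228 CPM in striatum, against 8.67 to 17.98 and 7.90 to 9.28 CPM in mPFC (−4.05 and −4.28, adjusted p = 0.000694 and 0.000258). *Crabp1*, a binding protein for retinoic acid in the cell, was at 0.196, 0.158, 0.186, 0.122 and 0.0937 CPM in mPFC 1 to 5 and at 6.96, 2.804, 3.05, 6.35 and 7.199 CPM in striatum 1 to 5 (log2 fold change −5.00, SE 0.37, adjusted p = 0.000607). The receptor *Rara* went the other way (log2 fold change 1.58, SE 0.14, adjusted p = 0.000818). *Aldh1a3*, an enzyme that makes retinoic acid, was at 5.02, 3.96, 2.805, 5.52 and 5.17 CPM in mPFC 1 to 5 and at 0.198, 1.87, 0.384, 0.310 and 0.101 CPM in striatum 1 to 5, so that striatum 2 was the highest of its region (log2 fold change 3.58, SE 0.66, adjusted p = 0.00626, and 4.86 without striatum 2, 3 and 4). *Cyp26b1*, which breaks retinoic acid down, was higher in mPFC in 4 of 5 mice, with overlap (1.97, adjusted p = 0.0427, and 3.54 without striatum 2, 3 and 4), and lost its call without mouse 1, 2, 4 or 5.

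Receptors for amines and acetylcholine leaned to mPFC, with 15 of 30 higher there and 7 higher in striatum (median 0.76). The alpha-1 adrenergic receptors *Adra1b* and *Adra1d* differed by 3.36 and 3.32, and by 4.57 and 5.73 without striatum 2, 3 and 4. *Chrna5*, a nicotinic subunit, was at 7.00, 6.71, 4.77, 5.64 and 5.24 CPM in mPFC 1 to 5 and at 0.584, 1.37, 1.504, 0.586 and 0.532 CPM in striatum 1 to 5 (log2 fold change 2.803, SE 0.31, adjusted p = 0.00138). Higher in striatum were the serotonin receptors *Htr1d* and *Htr1b* and the alpha-2 adrenergic receptor *Adra2c*. *Htr1d* was at 0.293, 0.343, 0.763, 0.220 and 0.328 CPM in mPFC 1 to 5 and at 11.5, 4.62, 7.52, 9.48 and 13.6 CPM in striatum 1 to 5 (log2 fold change −4.58, SE 0.40, adjusted p = 0.000818). *Htr1b* and *Adra2c* differed by −2.58 and −2.07 (adjusted p = 0.000502 and 0.0012).

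Glutamate receptors divided evenly, 9 to 9 of 24 (median −0.0043). *Grm2*, a presynaptic metabotropic receptor, was at 21.3, 23.0, 39.6, 32.0 and 33.5 CPM in mPFC 1 to 5 and at 0.657, 2.98, 15.6, 5.62 and 0.583 CPM in striatum 1 to 5 (log2 fold change 3.37, SE 0.67, adjusted p = 0.00824, and 5.58 without striatum 2, 3 and 4). *Grm8* and the kainate subunit *Grik4* were also higher in mPFC (1.96 and 1.66). *Grm4* and the kainate subunit *Grik2* were higher in striatum (−1.42 and −1.14), with no overlap in either.

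GABA receptor subunits were also called in both directions, 7 of 14 higher in mPFC and 4 in striatum. The alpha subunits were divided between the regions. *Gabra3* was at 175, 168, 128, 177 and 175 CPM in mPFC 1 to 5 and at 24.8, 75.8, 70.9, 52.9 and 23.3 CPM in striatum 1 to 5 (log2 fold change 1.89, SE 0.34, adjusted p = 0.00563, and 2.77 without striatum 2, 3 and 4), and *Gabra5* differed by 1.31. *Gabra4* was at 185, 167, 170.0, 169 and 181 CPM in mPFC 1 to 5 and at 364, 222, 323, 420.0 and 413 CPM in striatum 1 to 5 (log2 fold change −0.96, SE 0.13, adjusted p = 0.00244), and *Gabra2* differed by −0.58. *Gabrd*, the delta subunit of receptors outside the synapse, was higher in striatum (−1.30, adjusted p = 0.00568), whereas *Gabbr2*, a subunit of the GABA-B receptor, was higher in mPFC (1.86, adjusted p = 0.00262, and 2.55 without the 3 libraries).

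Of 20 neuropeptide genes, 9 were higher in mPFC and 6 in striatum, the latter including *Penk*, *Tac1*, *Pdyn* and *Nts*. *Adcyap1*, the precursor of PACAP, was at 33.5, 31.9, 29.2, 30.6 and 46.1 CPM in mPFC 1 to 5 and at 0.313, 2.07, 8.86, 4.98 and 0.317 CPM in striatum 1 to 5 (log2 fold change 4.13, SE 0.89, adjusted p = 0.0109, and 6.76 without striatum 2, 3 and 4). *Grp*, the gastrin-releasing peptide, was at 9.65, 8.32, 4.55, 9.78 and 14.5 CPM in mPFC 1 to 5 and at 0.0521, 1.41, 1.14, 0.763 and 0.0760 CPM in striatum 1 to 5 (log2 fold change 4.10, SE 0.90, adjusted p = 0.0117, and 7.18 without them). *Cck*, cholecystokinin, differed by 3.01 and 4.48 in these fits. Among 25 receptors for peptides, opioids and cannabinoids, 13 were higher in mPFC and 7 in striatum. The cholecystokinin receptor *Cckbr* (2.83), the somatostatin receptor *Sstr3* (2.62) and the orexin receptor *Hcrtr1* (2.32) led in mPFC, and their values were 4.09, 4.30 and 3.37 without striatum 2, 3 and 4. The galanin receptor *Galr1* led in striatum, at 0.0978 to 0.165 CPM in mPFC and 2.01 to 5.60 CPM in striatum (log2 fold change −4.81, SE 0.31, adjusted p = 0.000502). Both tachykinin receptors of the list followed. *Tacr1*, the receptor for substance P, was at 0.783, 0.640, 0.959, 0.856 and 0.961 CPM in mPFC 1 to 5 and at 19.0, 9.09, 10.1, 13.8 and 26.3 CPM in striatum 1 to 5 (log2 fold change −4.12, SE 0.23, adjusted p = 0.000502, and −4.76 without striatum 2, 3 and 4), and *Tacr3*, the receptor for neurokinin B, differed by −4.22, adjusted p = 0.000502.

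Potassium channel genes leaned to mPFC, 24 of 48 against 11 higher in striatum (median 0.45). *Kcnk4*, a two-pore channel, and *Kcnc4*, of the fast Kv3 family, differed by 2.58 and 2.51, after *Kcnc2* above, and by 4.22 and 3.93 without striatum 2, 3 and 4. In striatum *Kcna5*, a delayed rectifier, was at 1.77, 1.91, 3.99, 1.798 and 1.99 CPM in mPFC 1 to 5 and at 31.3, 22.3, 14.5, 22.0 and 32.1 CPM in striatum 1 to 5 (log2 fold change −3.45, SE 0.35, adjusted p = 0.00117). *Kcnab1* and *Kcnip2*, auxiliary subunits, were at −2.40 and −2.13. Among 33 sodium, calcium and HCN channel genes the counts were 12 and 11. *Scn4b*, a sodium channel beta subunit, was at 61.8, 79.2, 151, 49.9 and 39.7 CPM in mPFC 1 to 5 and at 1514, 602, 1193, 1298 and 1431 CPM in striatum 1 to 5 (log2 fold change −4.09, SE 0.41, adjusted p = 0.00118). The calcium channel auxiliary genes *Cacng4* and *Cacna2d3* were also higher in striatum (−2.36 and −2.04). *Cacna1g*, a T-type calcium channel, was at 33.4, 43.7, 57.7, 68.5 and 53.0 CPM in mPFC 1 to 5 and at 4.80, 17.8, 22.3, 9.73 and 4.99 CPM in striatum 1 to 5 (log2 fold change 2.33, SE 0.35, adjusted p = 0.00308, and 3.38 without striatum 2, 3 and 4), and the pacemaker channel *Hcn3* was higher in mPFC (1.30).

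**Figure D3:**
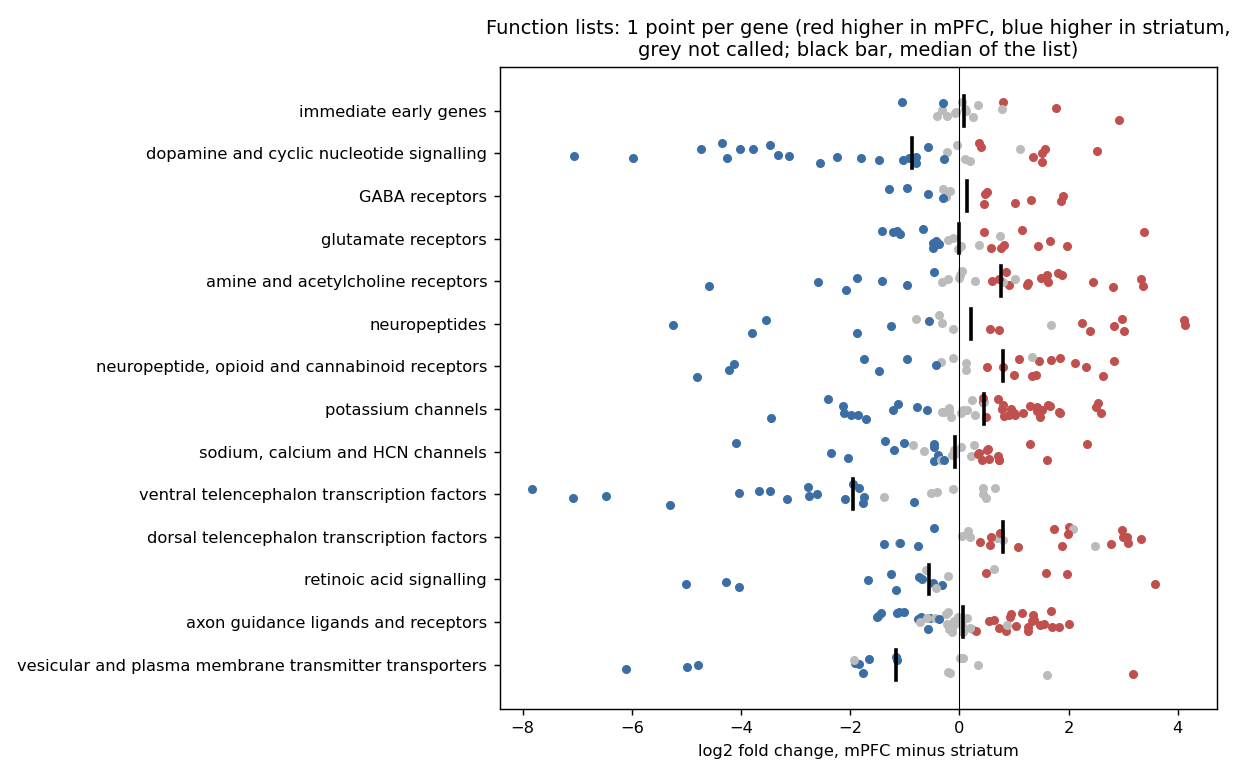
Log2 fold change, mPFC minus striatum (horizontal axis), of each gene of 14 function lists, coloured red where called higher in mPFC, blue where called higher in striatum and grey where not called, with the median of each list as a black bar. The median lies at −1.95 for ventral telencephalon factors and at 0.79 for dorsal ones.

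Axon guidance genes were called in both directions, 20 of 49 higher in mPFC and 11 in striatum (median 0.07). The semaphorin receptor *Plxna1*, the repellent *Slit2* and the ephrin receptor *Ephb2* were higher in mPFC (2.000, 1.82 and 1.69), and more so without striatum 2, 3 and 4 (2.82, 2.90 and 2.43). *Plxnd1*, another semaphorin receptor, was at 25.3, 30.4, 59.6, 43.0 and 29.8 CPM in mPFC 1 to 5 and at 123, 56.1, 126, 112 and 113 CPM in striatum 1 to 5 (log2 fold change −1.51, SE 0.21, adjusted p = 0.00252). Its groups overlapped only through striatum 2 and mPFC 3. The ligand *Sema3f* and the netrin receptor *Dcc* were also higher in striatum (−1.49 and −1.43). Of 17 transmitter transporter and synthesis genes, 9 were higher in striatum and 1, *Slc17a7*, in mPFC.

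Glial and vascular lists had medians between −0.87 and −0.12. The share called was 14.3% for astrocytes, 31.2% for oligodendrocytes, 12.5% for their precursors and 25% for vessels, each below the 38.1% of all genes. For microglia it was 75%. Of 14 astrocyte genes, 1 passed in each direction, the connexin *Gjb6* (0.60, adjusted p = 0.0331) higher in mPFC and *Id3* (−0.48, adjusted p = 0.0264) higher in striatum. All 16 oligodendrocyte genes had negative values (−2.45 to −0.66, median −0.87), of which 5 passed, and the list stood at 6.94 in mPFC 3 against 5.33 to 5.93 in the other mPFC libraries. *Mobp*, a myelin protein, was at 447, 571, 1196, 351 and 382 CPM in mPFC 1 to 5 and at 1218, 1671, 788, 815 and 1267 CPM in striatum 1 to 5 (log2 fold change −1.10, SE 0.34, adjusted p = 0.0389). The mPFC 3 library lay within the striatal range for this gene, and the call was lost without mouse 1, 2, 4 or 5 and without striatum 2, 3 and 4. The protease *Klk6* differed most (−2.45, adjusted p = 0.00525), and *Trf*, transferrin, by −1.01 (adjusted p = 0.0482). Of 8 genes of oligodendrocyte precursors, 1 passed, *Vcan*, a matrix proteoglycan (−0.79, adjusted p = 0.0141).

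Microglial genes were higher in striatum by small amounts. Of 12 genes, 9 passed, all in that direction, within a range of −0.47 to −0.04 (median −0.39). *C1qb*, a complement subunit, was at 29.4, 28.5, 27.8, 31.7 and 28.2 CPM in mPFC 1 to 5 and at 42.4, 35.5, 35.2, 44.3 and 46.1 CPM in striatum 1 to 5, with no overlap (log2 fold change −0.47, SE 0.08, adjusted p = 0.00378). *Trem2* and *Siglech*, receptors of microglia, differed by −0.46 and −0.42. Of 12 genes of vessels, 3 were called higher in striatum, *Abcc9*, *Ly6c1* and *Pdgfrb*, at −0.36, −0.38 and −0.23. All 3 calls were lost without striatum 2, 3 and 4, and already without the pairing alone. Of 14 ependymal genes, 0 passed in the edgeR fit, where 2 had an unadjusted p under 0.05, and 3 passed with DESeq2. In the fit without striatum 2, 3 and 4, 3 of them were higher in mPFC and 1 in striatum. Of 8 thalamic genes, 1 passed in each direction, and the one higher in mPFC was *Rgs16* (0.96, and 1.79 without the 3 libraries). Of 4 genes of the septum and pallidum 1 passed, *Npas1*, higher in mPFC (2.73, and 4.17 without them).

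Of 16 immediate early genes, which neurons switch on with activity, 3 were higher in mPFC and 2 in striatum, or 31.2% called against 38.1% of all genes. *Bdnf*, the neurotrophin that cortical neurons supply to the striatum, was at 46.1, 47.9, 42.5, 50.4 and 57.5 CPM in mPFC 1 to 5 and at 1.60, 10.5, 16.3, 14.0 and 1.99 CPM in striatum 1 to 5 (log2 fold change 2.92, SE 0.63, adjusted p = 0.0107, and 4.77 without striatum 2, 3 and 4). *Ier2* and *Fos* were higher in mPFC (1.76 and 0.79), with overlap in both, and *Ier2* stood at 2.85 without the 3 libraries. *Egr2* was at 7.10, 13.6, 8.22, 10.7 and 9.21 CPM in mPFC 1 to 5 and at 17.2, 29.9, 10.4, 30.5 and 18.8 CPM in striatum 1 to 5 (log2 fold change −1.06, SE 0.16, adjusted p = 0.00338), and *Junb* differed by −0.31, adjusted p = 0.0338.

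Outside the lists, the 8 largest differences in each direction were taken among protein-coding genes with a mean of at least 5 CPM and no overlap. In striatum they were *Sh3rf2*, *Gpx6*, *Serpina9*, *Ptpn7*, *Lrrc10b*, *Cd4*, *Ido1* and *Clspn*. *Sh3rf2*, a SH3 domain protein with a RING finger, was at 0.133, 0.0649, 5.38, 0.220 and 0.141 CPM in mPFC 1 to 5 and at 132, 53.4, 64.8, 135 and 122 CPM in striatum 1 to 5 (log2 fold change −8.06, SE 1.13, adjusted p = 0.00264, with −9.63 without mouse 3 and −6.74 without striatum 2, 3 and 4). *Gpx6*, a glutathione peroxidase, was at 5.64 to 25.3 CPM in striatum and had 0 to 3 reads per mPFC library except mPFC 3 with 42. *Cd4*, best known as the coreceptor of helper T cells, stood at 0.471, 0.501, 2.63, 0.379 and 0.433 CPM in mPFC 1 to 5 and at 64.7, 28.0, 41.5, 60.4 and 72.5 CPM in striatum 1 to 5 (log2 fold change −6.22, SE 0.58, adjusted p = 0.000982, and −6.87 without mouse 3). *Ido1*, which breaks down tryptophan, was at 0.329, 0.454, 1.29, 0.171 and 0.164 CPM in mPFC 1 to 5 and at 31.8, 12.9, 20.7, 30.1 and 36.3 CPM in striatum 1 to 5 (log2 fold change −5.91, SE 0.61, adjusted p = 0.0012, and −6.49 without mouse 3). The phosphatase *Ptpn7*, the DNA replication checkpoint gene *Clspn*, *Serpina9* and *Lrrc10b* differed by −6.39, −5.51, −7.41 and −6.63, and *Serpina9* by −8.58 without mouse 3. In all 8 genes mPFC 3 was the highest mPFC library.

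In mPFC the 8 were *Pappa2*, *Hkdc1*, *Glt8d2*, *Rspo2*, *Dkkl1*, *Slc30a3*, *Rxfp1* and *Fam19a1*. *Pappa2*, a protease of insulin-like growth factor binding proteins, was at 22.3, 17.3, 10.3, 13.3 and 10.2 CPM in mPFC 1 to 5 and at 0.104, 1.82, 2.09, 0.642 and 0.380 CPM in striatum 1 to 5 (log2 fold change 4.19, SE 0.69, adjusted p = 0.00434, and 5.96 without striatum 2, 3 and 4). *Slc30a3*, which loads zinc into glutamatergic vesicles, was at 62.7, 64.3, 63.3, 65.8 and 59.0 CPM in mPFC 1 to 5 and at 1.06, 12.7, 26.5, 15.5 and 1.37 CPM in striatum 1 to 5 (log2 fold change 3.21, SE 0.78, adjusted p = 0.017, and 5.70 without them). The hexokinase family gene *Hkdc1*, the Wnt pathway ligand *Rspo2* and the relaxin receptor *Rxfp1* differed by 3.62, 3.36 and 3.19, and by 5.54, 4.41 and 4.45 without the 3 libraries. *Glt8d2*, *Dkkl1* and *Fam19a1* differed by 3.48, 3.35 and 3.14, and by 6.22, 5.53 and 6.08 without the 3 libraries. Each of the 8 was lowest in striatum 1 or 5.

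The study centred on genes related to autism spectrum disorder (ASD), whose list it drew from earlier work, and 96 of them were tested. Of these, 22 were higher in mPFC and 15 in striatum, so 38.5% were called, against 38.1% of all genes, with a median of 0.02 against −0.02. *Prss12*, the protease neurotrypsin, was at 37.4, 38.3, 32.5, 27.5 and 38.6 CPM in mPFC 1 to 5 and at 1.94, 14.2, 8.78, 4.56 and 2.07 CPM in striatum 1 to 5 (log2 fold change 2.84, SE 0.48, adjusted p = 0.00475, and 4.12 without striatum 2, 3 and 4). Its lowest striatal levels were in striatum 1 and 5. *Nfix*, a nuclear factor, and *Mef2c*, an activity-dependent factor, differed by 1.99 and 1.72, and by 2.62 and 2.42 in the fit without the 3 libraries.

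Of the other ASD-related genes higher in mPFC, *Syn1*, the vesicle protein synapsin 1, was at 75.3, 86.4, 122, 183 and 169 CPM in mPFC 1 to 5 and at 27.7, 33.8, 48.1, 36.8 and 33.8 CPM in striatum 1 to 5 (log2 fold change 1.75, SE 0.19, adjusted p = 0.00127). Within mPFC, libraries 4 and 5 were the highest and 1 and 2 the lowest. *Shank2*, a postsynaptic scaffold, *Iqsec2*, an exchange factor, and *Gria3*, an AMPA receptor subunit, differed by 1.09, 0.75 and 0.57. *Pcdh19*, a protocadherin, and *Aff2* differed by 1.79 and 1.30, and *Pcdh19* by 2.45 without striatum 2, 3 and 4. *Acsl4* and *Dmd*, which encodes dystrophin, differed by 0.91 and 0.85. *Cacna1f*, a calcium channel of the retina, was called at 1.65 on 2 to 15 reads per striatal library, and at 2.45 without striatum 2, 3 and 4.

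On the striatal side, *Ap1s2* (chrX:163909017-163933666), an adaptor of vesicle coats, was at 21.003, 20.3, 25.4, 17.5 and 16.7 CPM in mPFC 1 to 5 and at 93.8, 69.6, 61.2, 87.5 and 92.5 CPM in striatum 1 to 5, with no overlap (log2 fold change −2.002, SE 0.18, adjusted p = 0.000847). *Foxp1* (chr6:98925338-99522721), a forkhead factor of medium spiny neurons, was at 79.3, 84.8, 116, 97.2 and 103 CPM in mPFC 1 to 5 and at 433, 195, 298, 377 and 381 CPM in striatum 1 to 5 (log2 fold change −1.77, SE 0.18, adjusted p = 0.0012). *Rpe65*, known from the visual cycle of the eye, was low in both regions, at 0.937 to 1.76 CPM in mPFC and 2.34 to 5.52 CPM in striatum (−1.60, adjusted p = 0.00607). *Gamt*, which makes creatine, and *Nhs* differed by −1.08 and −0.86 (adjusted p = 0.0062 and 0.014). *Chd7*, a chromatin remodeller, did not pass (log2 fold change −0.73, SE 0.26, adjusted p = 0.0635), with mPFC 3 at 20.2 CPM against 8.62 to 10.04 CPM in the other mPFC libraries. It gained a call in 5 of 13 alternative fits, among them DESeq2 and the fit with all 24 samples, so its result depends on the processing. *Tbx1* did not pass either (−0.79, adjusted p = 0.0624), and gained a call in 1 of 13.

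**Figure D4:**
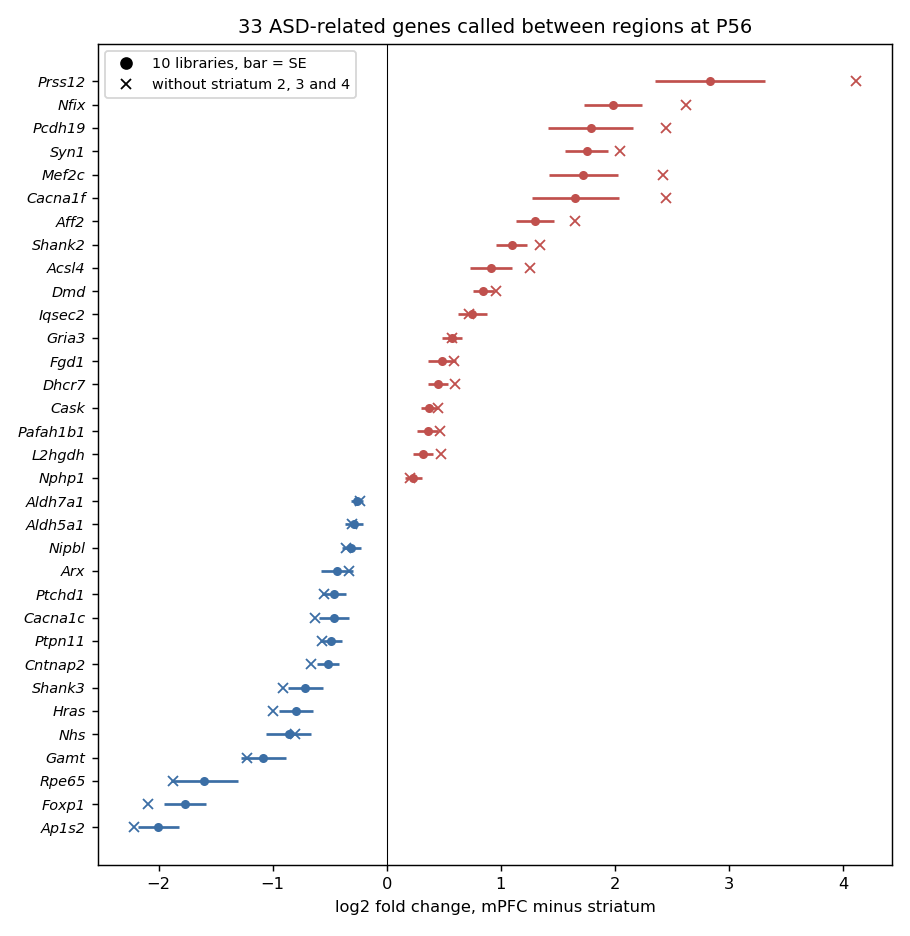
Log2 fold change, mPFC minus striatum (horizontal axis), of 33 ASD-related genes called at P56, with the SE as a bar and the value without striatum 2, 3 and 4 as a cross. *Prss12* lies at 2.84 with all libraries and at 4.12 without the 3, and *Ap1s2* at −2.002 and −2.21.

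The regions were also compared at P14 in 5 other mice, and the change of the regional difference between ages was tested over the 20 libraries. Of 19617 genes, 299 (1.52%) passed, 156 with a difference shifted toward mPFC at P56 and 143 toward striatum. This count moved with single mice, from 33 to 1245, and fell to 17 without the P14 mice 1 and 4, whose striatal libraries held ependymal genes at a mean log2(CPM + 0.5) of 5.27 and 4.59 against 0.97 to 2.60 in the other P14 striatal libraries. P14 striatum 1 also stood apart for thalamic genes (5.44, others 2.54 to 3.78) and shared medium spiny neuron genes (7.24, others 8.41 to 8.78). P14 striatum 2 was the highest for cortical excitatory genes (4.38, others 3.21 to 3.36).

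The 11 genes chosen for size that are given here lost their call when mouse 1, 4 or 5 of P56 or the P14 mice 1 and 4 were left out. In each of them striatum 1 was the lowest or the highest of the P14 striatal libraries. It held *Tac1* at 74.1 CPM (others 134 to 207) and *Fhad1* at 13.1 CPM (others 1.88 to 6.72). What part the tissue of that punch had in the shifts was not tested. *Tac1* went from 28.7 to 42.7 CPM in mPFC and 74.1 to 207 CPM in striatum at P14 to 16.9 to 22.2 and 187 to 364 CPM at P56, so both regions moved apart (difference −1.89, SE 0.33, adjusted p = 0.0284). *Tacr3* differed by −2.32 at P14 and −4.21 at P56, and *Rasgrp2*, a calcium-regulated exchange factor, by −2.38 and −4.46. *Rem2*, a small GTPase that restrains calcium channels, differed by −1.71 and −3.51. *Slc17a8*, the vesicular glutamate transporter also found in cholinergic interneurons, was at 10.5 to 19.5 CPM in mPFC and 6.13 to 17.8 CPM in striatum at P14, and at 3.95 to 5.11 and 10.4 to 23.7 CPM at P56. The groups overlapped at P14 and no longer did at P56 (difference −1.91, SE 0.30, adjusted p = 0.019). *Papln* went from 0.47 to −1.62.

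Toward mPFC, *Fhad1* went from −0.30 at P14 to 2.51 at P56, *Serpina3n*, an acute phase protease inhibitor, from −0.66 to 1.39, *Tmem141* from −0.71 to 1.05 and *Kndc1* from −0.90 to 0.81. *Plk5*, of the polo-like kinases, stayed higher in striatum while its difference narrowed from −4.04 to −1.84. Of the genes named above, *Etv1* (difference −0.80, SE 0.16, adjusted p = 0.0403) and *Slc5a7* (difference −1.17, SE 0.24, adjusted p = 0.0405) also passed, with P14 values of 1.39 and −3.62.

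**Figure D5:**
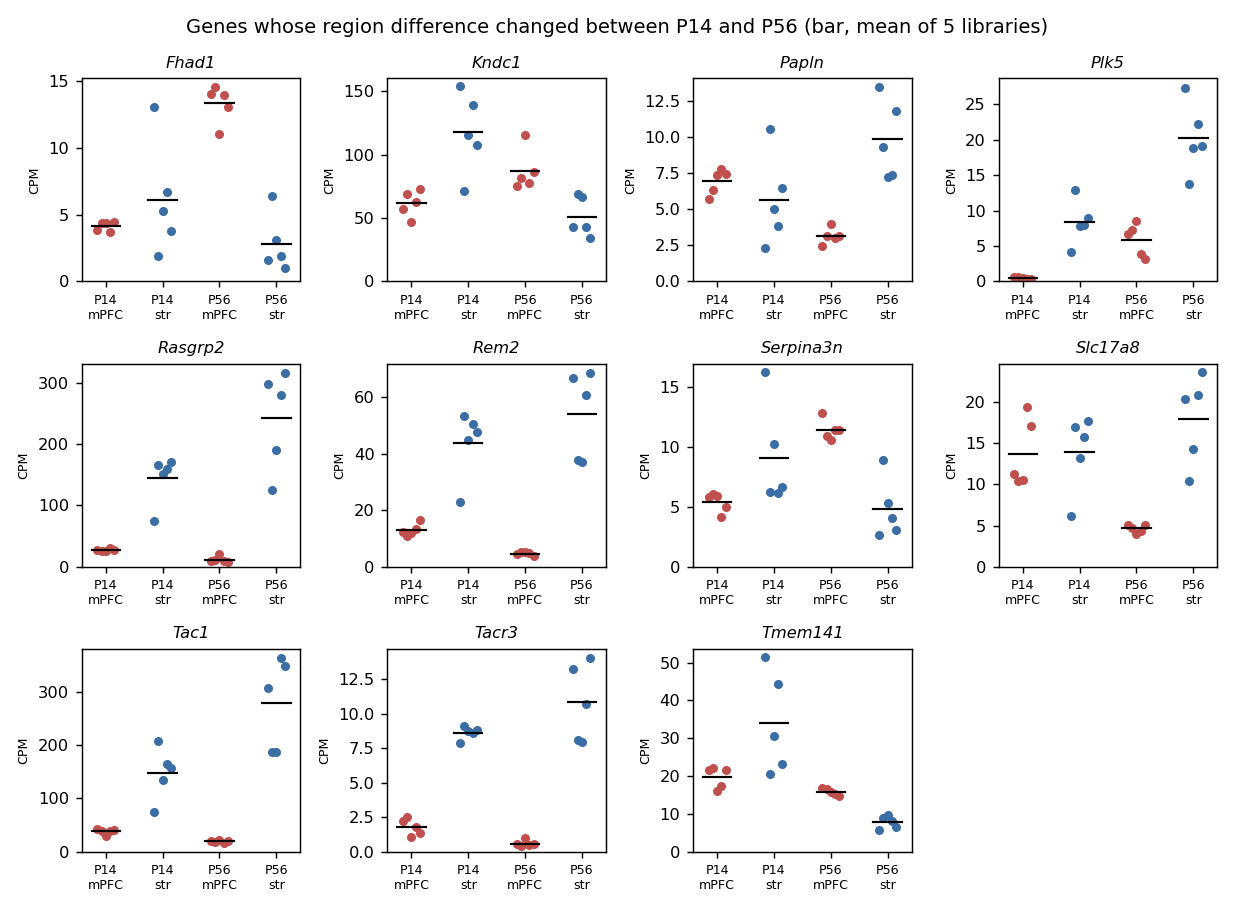
Levels in CPM (vertical axis, from 0) of 11 genes with a large called shift of the regional difference between P14 and P56, 1 point per library, with mPFC in red, striatum (str) in blue and the mean of 5 libraries as a bar. *Tac1* spans 16.9 to 22.2 CPM in mPFC and 187 to 364 CPM in striatum at P56.

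The authors also assembled contigs from reads that lay antisense to genes, and counted them in the same libraries, so that contig reads could be compared between the regions. The median contig lay 98.1% in exons of the gene it opposes, and 86.1% of the gaps in contigs matched introns of that gene. Whether the contig reads came from RNA of the opposite strand was not tested here, and the contig results below are to be read with that limit. The contigs held 35.01% to 36.0% of the reads counted on genes and contigs together. The mean share was 35.4% ± 0.24 (SD, n = 5) in mPFC and 35.6% ± 0.32 (SD, n = 5) in striatum, lower in mPFC in 3 of 5 mice (difference −0.25 percentage points, exact paired sign permutation test, two-sided, p = 0.25). The smallest p that 5 pairs allow is 0.0625.

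Below are 4 contigs, 2 called in each direction, with the largest difference among called contigs of at most 300 bases and a mean of at least 50 reads that bridge a splice site of a gene on the lists and lie in its coding exons. They are shown because each lay opposite coding exons of a gene and crossed a point where exons are joined. The contigs' own letters were not used here, and those printed are the reference sequence of the GENCODE M21 transcript under the contig (GRCm38), 5′ to 3′ on the contig's strand, and the capitals mark the 10 bases on each side of the point where 2 exons of the gene on the other strand are joined.
Myl4 (chr11:104584091-104584612, minus strand): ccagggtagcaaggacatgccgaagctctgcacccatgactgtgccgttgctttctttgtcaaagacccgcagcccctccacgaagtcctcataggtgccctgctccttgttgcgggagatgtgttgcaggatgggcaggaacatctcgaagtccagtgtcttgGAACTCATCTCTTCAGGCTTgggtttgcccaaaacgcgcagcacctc
Vip (chr10:5643987-5644952, minus strand): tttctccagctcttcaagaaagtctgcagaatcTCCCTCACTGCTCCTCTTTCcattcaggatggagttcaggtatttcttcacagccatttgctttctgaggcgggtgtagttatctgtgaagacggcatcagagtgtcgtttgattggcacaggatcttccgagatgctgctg
Crabp1 (chr9:54765483-54768482, minus strand): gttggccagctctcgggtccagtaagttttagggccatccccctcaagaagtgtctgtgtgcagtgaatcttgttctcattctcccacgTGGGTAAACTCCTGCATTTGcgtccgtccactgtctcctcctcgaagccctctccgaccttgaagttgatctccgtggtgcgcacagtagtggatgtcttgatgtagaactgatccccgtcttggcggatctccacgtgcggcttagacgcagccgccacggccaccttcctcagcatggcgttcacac
Strip2 (chr6:29929919-29931305, minus strand): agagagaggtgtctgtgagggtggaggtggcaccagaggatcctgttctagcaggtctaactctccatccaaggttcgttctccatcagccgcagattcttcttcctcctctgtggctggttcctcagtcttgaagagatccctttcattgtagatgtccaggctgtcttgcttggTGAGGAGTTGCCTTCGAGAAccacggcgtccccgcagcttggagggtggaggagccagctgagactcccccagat
The contig on *Myl4* had a log2 fold change of 3.18, and the gene had 3.24. For *Vip* the values were 2.67 and 2.98, for *Crabp1* −5.04 and −5.00, and for *Strip2* −2.65 and −2.70. Contig and gene moved in the same direction in all 4 pairs. Without striatum 2, 3 and 4 the contigs on *Myl4* and *Vip* stood at 5.18 and 5.58.

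Of 32177 contigs tested on the scale of the gene libraries, 13168 (40.9%) passed, 6900 higher in mPFC (21.4%) and 6268 in striatum (19.5%). The difference of a contig followed that of its gene closely. Over 26403 contigs with a mean of at least 50 reads whose gene was tested, contig minus gene had a median of −0.0006 and quartiles of −0.05 and 0.04 on the log2 scale, and 98.7% lay within 0.5 of the gene. The contig and its gene were both called in 11383 cases, and 11369 of these had the same sign. Contigs and genes come from the same libraries, so these are descriptions of paired values.

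Of the 4 contigs with the largest difference in each direction, those higher in striatum lay on *Adora2a*, *Isl1*, *Slc10a4* and *Lrrc10b*. The contig on *Adora2a* (chr10:75333271-75333727, fully exonic) was at 0.231, 0.334, 4.14, 0.355 and 0.340 CPM in mPFC 1 to 5 and at 96.8, 38.1, 59.3, 92.8 and 97.3 CPM in striatum 1 to 5 (log2 fold change −6.95, SE 0.74, adjusted p = 0.00034). As for the gene, mPFC 3 lay above the other mPFC libraries and striatum 2 was the lowest striatal library. Contigs on *Isl1* and on *Slc10a4*, a transporter of cholinergic terminals, had at most 5 reads in any mPFC library, with 0.911 to 2.26 and 1.16 to 2.17 CPM in striatum. The contig on *Lrrc10b* differed by −6.70. In the other direction stood contigs on *Adcyap1* (3.72), on *Grp* (3.87 and 3.72) and on *Trbc2*, a T cell receptor constant gene (3.75). Without striatum 2, 3 and 4 the contig on *Adcyap1* stood at 7.34, those on *Grp* at 7.87 and 7.34, and that on *Trbc2* at 5.99.

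On ASD-related genes 271 contigs were tested, on 77 genes, and 121 (44.6%) were called, against 40.9% of all contigs, with 73 higher in mPFC and 48 in striatum. Toward striatum, 2 contigs on *Ap1s2* were at −2.08 and −2.01 (gene −2.002) and 1 on *Foxp1* at −1.90 (gene −1.77).

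The ratio of contig to gene reads was called different between the regions in few genes. An unadjusted p under 0.05 (limma) was reached by 1394 genes, so the calls need not be all the genes that differ. Of 9828 genes with a mean of at least 50 reads on both, 100 (1.02%) passed (limma on the log2 ratio), 41 with a higher ratio in mPFC and 59 in striatum, and the quartiles of all genes were −0.03 and 0.02. *Gas7*, a growth arrest gene with a role in neurite growth, had contig reads at 0.606, 0.737, 0.814, 0.534 and 0.815% in mPFC 1 to 5 and 2.13, 1.53, 1.41, 1.78 and 1.94% in striatum 1 to 5 of gene and contig reads together. The groups did not overlap (log2 ratio difference −1.34, SE 0.16, adjusted p = 0.0287), and the gene itself did not pass (0.13). *Runx2*, a runt factor, was at 11.5, 7.76, 9.98, 8.89 and 10.2% in mPFC 1 to 5 and 28.4, 11.8, 16.0, 23.3 and 23.8% in striatum 1 to 5 (log2 ratio difference −1.23, SE 0.18, adjusted p = 0.0447). *Il17rc*, an interleukin receptor chain, and *Sipa1l3*, a GTPase activator, had ratio differences of −0.99 and −0.98.

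Toward mPFC, *Dpp4*, a membrane protease, was at 43.0, 44.2, 46.0, 47.5 and 46.0% in mPFC 1 to 5 and 33.6, 36.6, 32.5, 33.6 and 33.1% in striatum 1 to 5 (log2 ratio difference 0.69, SE 0.07, adjusted p = 0.0157). The mitochondrial tRNA gene *mt-Tt*, the protocadherin *Pcdhgb7* and *Gm4924* had ratio differences of 0.73, 0.76 and 0.57. In *mt-Tt* and *Pcdhgb7* nearly all reads were on contigs, at least 99.8% and 97.0% in every library. Of 75 ASD-related genes tested for the ratio, 1 passed, the histone methyltransferase *Nsd1*, by −0.08 on the log2 scale. The count of 100 fell to 12 to 70 when single mice were left out, and each of the 9 ratio calls named here was lost without at least 2 of the 5 mice taken singly, those of *Runx2* and *Gm4924* when any one of the 5 was left out.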

How the data were processed

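Per the labels and the study's methods, libraries were stranded total RNA depleted of ribosomal RNA, base calls were made with CASAVA 1.8.4, reads were checked with FastQC 0.11.5 and aligned with STAR to GRCm38, and reads opposite to genes were assembled with Trinity. The authors deposited raw counts of uniquely mapped reads for 39469 genes and 32861 contigs. Columns were matched to samples by name. The study's animal numbers put mPFC and striatum of 1 number in the same mouse, and mouse was a term in each model. Deviations of log2(CPM + 0.5) from the mean of the region correlated within the pair at −0.09, 0.05, 0.11, 0.04 and 0.29 in mice 1 to 5. The highest correlations of each mPFC library with the striatum of another mouse were 0.47, 0.39, 0.17, 0.06 and 0.02. Only in mouse 5 was the value of its own pair the higher, so the pairing rests on the animal numbers and not on these values. The highest share of identical counts among 45 library pairs was 0.352%.

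Genes that reached 10 reads in 3 or more samples were fitted with edgeR 4.0.16 (TMM, quasi-likelihood) in R 4.3.3, and contigs likewise with the gene library sizes and factors. The contig to gene ratio was fitted with limma 3.58.1 on log2 of reads plus 0.5. P-values were Benjamini-Hochberg adjusted, with calls under 0.05. DESeq2 1.42.0 and other settings served as alternatives. Genes were named by rule: 20 defining genes, the up to 3 largest calls per list and direction at 1 CPM or more, the 8 largest outside the lists at 5 CPM or more, the ASD-related genes the study names, the 6 largest region by age calls in each direction, and the largest contigs and ratios. *Strip2*, *Nsd1* and the sequences were added after values were seen. Some genes named by these rules are not reported here. Members and lists were chosen with earlier results of these data known. Statistics were tested on simulated data. Counting error is small at this depth for well-covered genes, whose precision is set by the spread over the 5 mice, mixing of regions included. It is not small where a region held few reads, as for *Lhx8*, *Six3*, *Gpx6* and *Cacna1f* and the contigs on *Isl1* and *Slc10a4*.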

Additional observations from a re-analysis of the deposited data

Results flagged for a closer look

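Within each region, 378 sets of 5 libraries (a gene or a list in 1 region) were searched for a library set apart from the other 4 by Dixon's test at the 95% level, and 42 had one. At that level chance gives about 1 in 20 for independent sets. These sets share the same libraries, and many of the genes were named for a large regional difference, so the count is only a description. Most came from mPFC 3, already described above as a cortical library that held striatal genes, though not every gene below was one higher in striatum. It was the high library for *Adcy1* at 1551 CPM, *Adora2a* at 14.2 CPM, *Cd4* at 2.63 CPM, *Chd7* at 20.2 CPM, *Clspn* at 2.32 CPM, *Cux1* at 88.1 CPM, *Drd2* at 5.59 CPM and *Gpr6* at 5.53 CPM. It was likewise high for *Gpx6* at 0.433 CPM, *Htr1d* at 0.763 CPM, *Isl1* at 0.712 CPM, *Kcna5* at 3.99 CPM, *Lrrc10b* at 11.3 CPM, *Penk* at 75.4 CPM, *Ptpn7* at 0.443 CPM and *Rarb* at 17.98 CPM, and for *Rasgrp2* at 20.7 CPM, *Rgs9* at 41.8 CPM, *Serpina9* at 2.26 CPM, *Sh3rf2* at 5.38 CPM, *Six3* at 0.474 CPM, *Slc35d3* at 2.35 CPM, *Syndig1l* at 6.76 CPM and *Tacr3* at 0.969 CPM. It was the low library for *Cck* at 289 CPM, *Dkkl1* at 18.4 CPM, *Gabra3* at 128 CPM, *Glt8d2* at 24.5 CPM, *Grik4* at 22.9 CPM and *Neurod6* at 62.5 CPM. Of the genes high in mPFC 3, *Adcy1* was called higher in mPFC than in striatum (1.56) and *Chd7* was not called (−0.73). Why they were high in that library was not tested.

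Of the lists, mPFC 3 was set apart, on the scale of mean log2(CPM + 0.5), for medium spiny neuron genes at 5.94, direct-pathway neuron genes at 3.49, indirect-pathway neuron genes at 4.18 and cortical layers 2 to 4 genes at 4.70. The list of layers 2 to 4 had a median log2 fold change of −0.06, so it was not a list of striatal genes. Striatum 2 was the high library for *Aldh1a3* at 1.87 CPM and the low one for *Kcnip2* at 149.7 CPM, *Lrrc10b* at 126 CPM, *Plxnd1* at 56.1 CPM, *Reln* at 217 CPM and *Scn4b* at 602 CPM. The remaining ones were *Ntsr1*, high in mPFC 5 at 6.79 CPM, and *Tle4*, low in mPFC 4 at 98.6 CPM.

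The regional difference changed between P14 and P56 in 13 of the named genes (edgeR quasi-likelihood test of the change). On the log2 scale, as P56 minus P14, it moved toward mPFC in *Fhad1* by 2.81, *Kndc1* by 1.71, *Plk5* by 2.20, *Serpina3n* by 2.05 and *Tmem141* by 1.76. It moved toward striatum in *Papln* by −2.09, *Rasgrp2* by −2.08, *Rem2* by −1.80, *Slc17a8* by −1.91, *Tac1* by −1.89, *Tacr3* by −1.89, *Etv1* by −0.80 and *Slc5a7* by −1.17. Each of these lost the call without P56 mouse 1, 4 or 5 and without P14 mice 1 and 4.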

How the results depend on the processing

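The gene count of 7162 became 7322 without the term for mouse, which pairs the regions, and the contig count of 13168 became 13342. With single mice left out the gene count ran from 4390 to 6896, and 2348 genes had both the call and a 2-fold difference. The ratio count of 100 became 208 without the pairing by mouse and 173 without gene and contig pairs within 1% of each other, and 12 to 70 with single mice left out. The region by age count of 299 became 871 without the pairing, and 2140 with P56 striatum 2, 3 and 4 left out as well. It was 1999 with DESeq2, 17 without P14 mice 1 and 4, and 33 to 1245 with single P56 mice left out. The causes were not tested, beyond the fewer samples in some fits.

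For 168 named genes under 13 alternatives, 2048 values kept direction and call, 112 lost the call, 9 gained it and 6 changed direction. *Nr4a2* changed without striatum 2, 3 and 4 (1.00), also without mPFC 3 (0.95), without mouse 3 (0.059; −0.46 to 0.059 with single mice left out), and without mice 2, 3 and 4 altogether (0.80), the last chosen after seeing the data. *Rorb* changed without the pairing (−0.0077) and with all 24 samples (−0.0027), with no call in either fit. Calls were lost most often for *Pdgfrb* (9 of 13), *Junb* (8 of 13), *Wfs1* and *Ly6c1* (7 of 13 each). Single mice ended the calls of *Abcc9*, *Adcy8*, *Fam19a1*, *Gjb6*, *Glt8d2*, *Id3*, *Junb*, *Ly6c1*, *Nhs*, *Npr3*, *Nrn1*, *Ntsr1*, *Pdgfrb*, *Rasgrf2*, *Rgs16*, *Rspo1*, *Slc30a3*, *Tac2*, *Trem2*, *Trf*, *Vcan* and *Wfs1*, besides *Cyp26b1*, *Mobp*, *Th* and *Vip*. Of the named genes higher in mPFC, 13 had a fold change that moved by over 1.5 times with 1 mouse left out, with log2 ranges over the 5 fits of *Adcyap1* 3.52 to 4.83, *Aldh1a3* 3.18 to 4.24, *Cyp26b1* 1.48 to 2.57, *Dkkl1* 2.79 to 3.98, *Fam19a1* 2.42 to 3.84, *Glt8d2* 2.83 to 4.22, *Grp* 3.52 to 4.73, *Hkdc1* 3.10 to 4.26, *Npr3* 2.39 to 3.72, *Nrn1* 2.65 to 3.93, *Pappa2* 3.60 to 4.73, *Slc30a3* 2.60 to 3.80 and *Vip* 2.28 to 3.71.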

Other observations

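The contigs followed the exons of the genes they oppose. Of 32861 contigs, 60.9% lay at least 95% in exons of the gene on the other strand, with a median of 98.1% exonic, and 3765 had no exonic base. Of these contigs 11015 had gaps of more than 20 bases, and 86.1% of their 25666 gaps matched an intron of the opposite gene within 5 bases. In 186 pairs, the gene and its contig had read counts within 1% of each other over the 10 P56 libraries.

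Contig and gene were called in opposite directions in 14 pairs on 11 genes, chosen for description after their values were seen. On *Arpp21*, which encodes a cyclic AMP-regulated phosphoprotein of medium spiny neurons, 2 contigs differed by 0.85 and 0.90 toward mPFC while the gene differed by −1.61. A contig on *Bcar3*, an adaptor of integrin signalling, differed by 2.68 and the gene by −0.24. A contig on *Podn*, a matrix proteoglycan, differed by −0.51 and the gene by 2.04. A contig on *Rcan2*, a calcineurin regulator, differed by 0.48 and the gene by −0.85. The contigs on *Arpp21* were 98% and 95.85% exonic and that on *Rcan2* 81.5%. The contig on *Bcar3* was 54.1% exonic with a mean of 64 reads, and that on *Podn* had 0% exonic bases.

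Across 19617 genes the regional differences at P14 and P56 had a Pearson r of 0.79, as a description over genes that are not independent. Of 7794 genes called at P56 in the fit over 20 libraries, 75.6% were also called at P14, where 10063 of all 19617 genes were called. With so many calls at P14, a large overlap would arise even without a tie between the ages. The shared genes were 58.5% of those called at P14, with the same sign in 5828 of 5889.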
